A study of Anableps anableps with 4 samples.

Results

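The genes described here are those that divide the vertebrate retina into a dorsal and a ventral domain: EPHB2 and EPHB3 on the ventral side, and EFNB2, ALDH1A2, BMP4 and TBX5 on the dorsal side. They were followed here across the tissues of the head of the four-eyed fish Anableps anableps. Every gene row whose symbol equalled 1 of these 6 symbols, with case ignored and a suffix a or b allowed, was taken and kept apart by gene identifier. This gave 11 rows of the 22934 genes listed. They were ephb2a, ephb2b, EPHB3, ephb3a, 3 rows named efnb2a, ALDH1A2, BMP4, tbx5a and tbx5b.

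The series profiled frozen sections of 10 µm on Visium slides, on which barcoded spots capture the poly(A) RNA of the tissue above them. Each spot therefore reports a small region that may hold several cells or part of one. The sections were adult eye 1, adult eye 2, a stage 4 head, and a mixed capture area with tissue of 2 stages, a head at stage 3 beside an eye at stage 5, which was used as 1 sample and is called the stage 3/5 section. No treatment, genotype or strain is given in the labels, all sections carry batch 1, and whether the adult eyes came from different animals is not stated, so the spread between sections may be partly technical. Each developmental group is 1 section.

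In the developing vertebrate eye, BMP4 from the dorsal side switches on TBX5, and TBX5 in turn favours the ephrin EFNB2. The receptors EPHB2 and EPHB3 are held to the ventral side, and contact between the receptors and the ephrin guides ganglion cell axons to their targets. ALDH1A2 makes retinoic acid, a signal used in the eye and in many tissues of the head. None of these genes is confined to the retina in other vertebrates: EFNB2 marks arteries, BMP4 acts in skeleton and skin, and TBX5 acts in heart and forelimb.

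Spots with at least 100 UMIs (unique molecular identifiers, each standing for 1 captured RNA molecule) were kept. They held 4318525, 5161091, 4269120 and 1513171 UMIs in adult eye 1, adult eye 2, the stage 4 head, and the stage 3/5 section. The median kept spot held 1099.5 to 2276 UMIs. Spots were placed in tissue classes by marker genes that include none of the 11 rows, and are called retina-marker spots, lens-marker spots and so on. There were 132, 159, 86 and 74 retina-marker spots in those sections, in which 44 to 49 of 70 matched retina markers had a UMI at a summed 28015 to 33908 CPM (a gene's UMIs scaled to the total UMIs of the same spots). In cartilage-marker spots the cartilage markers reached 7307 and 5135 CPM in adult eyes 1 and 2, below the muscle markers (9995 and 6342 CPM), the connective tissue markers (9258 and 10873 CPM) and the globins (24432 and 30097 CPM) of the same spots. The sections shared 95 to 1015 spot barcodes with each other, as the slide's barcodes are a fixed set.

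The 11 rows were sparsely captured. They held 475, 525, 397 and 277 UMIs in adult eye 1, adult eye 2, the stage 4 head, and the stage 3/5 section. By molecules captured, with the capture efficiency of each gene not known, ALDH1A2 had 505 UMIs over the 4 sections, EPHB3 420, efnb2a ENSABLG00000016818 237, efnb2a ENSABLG00000001777 216, ephb2b 199 and BMP4 60. The T-box genes tbx5b and tbx5a had 20 and 11 UMIs. The remaining rows were close to absent, with 4 UMIs for efnb2a ENSABLG00000013510 and 1 UMI each for ephb2a and ephb3a. In all, 7 rows reached the minimum of 20 UMIs needed for a test, and tbx5b did so only with its retina UMIs included.

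Most of these molecules lay outside retina-marker spots. Other classes also held retina markers, as given below, so what lay outside these spots can include retinal tissue. Retina-marker spots held 3.52% of all UMIs. They held 37.1% of the EPHB3 UMIs and 29.6% of the ephb2b UMIs, but 17.7% and 12.0% of those of efnb2a ENSABLG00000016818 and ENSABLG00000001777, 13.3% of BMP4 and 8.51% of ALDH1A2. Of all patterning-gene UMIs, 75.2%, 77.5%, 86.9% and 76.9% lay elsewhere in adult eye 1, adult eye 2, the stage 4 head, and the stage 3/5 section.

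**Figure D1:**
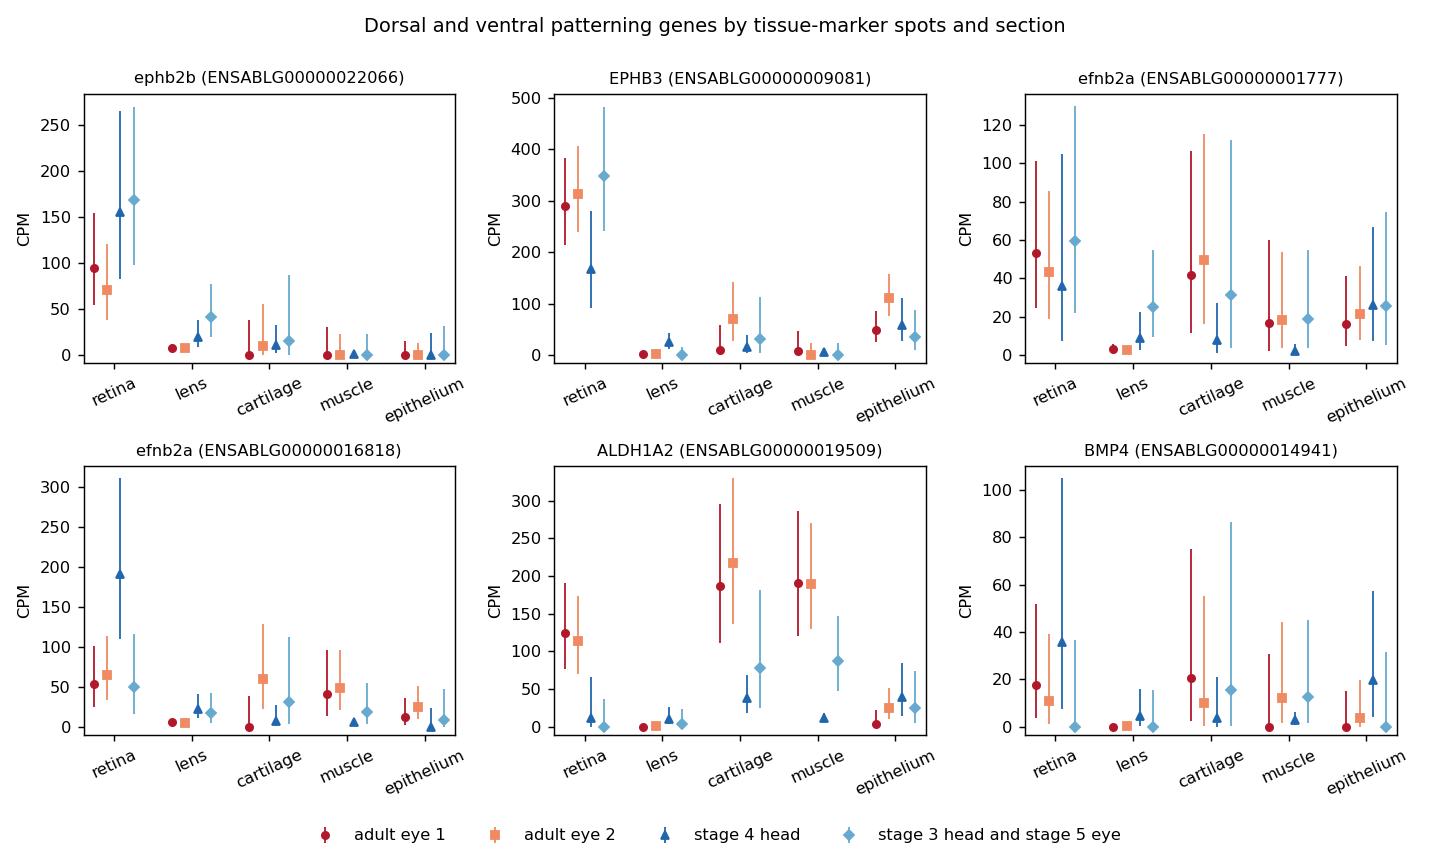
Level in CPM (vertical axis, linear, its own scale for each gene) of the 6 rows with at least 50 UMIs in the spots of 5 tissue classes; each point is 1 section and each line its exact 95% Poisson interval. Of these 5 classes, ephb2b and EPHB3 stand highest in retina-marker spots in all 4 sections. ALDH1A2 is high in the adult retina-, cartilage- and muscle-marker spots and low in lens-marker spots.

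Each class was compared with all other kept spots of the same section, over the 4 sections, with edgeR's quasi-likelihood test and Benjamini-Hochberg adjustment over the 10982 genes tested; a gene is called at an adjusted p under 0.05. A log2 fold is taken after scaling on well-captured genes, which lowers the retina's plain CPM ratio by 0.96 and raises the lens's by 1.49 on the log2 scale on average. Lens markers summed to 328573, 303257 and 183602 CPM in the lens-marker spots of adult eye 1, adult eye 2 and the stage 4 head. Their part in the scaling was not tested. In retina-marker spots ephb2b, EPHB3 and efnb2a ENSABLG00000016818 were called higher and no tested row was called lower. The fit also called tbx5b, which reached the minimum only through its retina UMIs, so that call is not read as a result. Among all genes 33.2% were called higher and 10.2% lower, so a call in this tissue was common. For a bulk region such as a spot, more cells of a type and more RNA per cell cannot be told apart.

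Among the ventral receptors, ephb2b had 94.9, 70.4, 155 and 169 CPM in the retina-marker spots of adult eye 1, adult eye 2, the stage 4 head, and the stage 3/5 section, against 9.16, 7.64, 8.12 and 21.2 CPM in their other spots. The lowest retina value stood above the highest value of the summed other spots. Single classes among those spots could still overlap with the retina, as given below for brain- and myelin-marker spots. The log2 fold was 2.47 (SE 0.40, edgeR adjusted p = 6.4e-07). EPHB3 had 291, 314, 167 and 348 CPM in the same retina-marker spots, against 13.0, 17.9, 22.5 and 19.1 CPM in the other spots. It too showed no overlap with the summed other spots, with a log2 fold of 2.97 (SE 0.36, edgeR adjusted p = 3.8e-10). How many of all genes were separated in this way was not counted, so the separation of both receptors is a description. Both calls held under all 17 alternative settings tried, including each section left out in turn, with log2 folds of 1.25 to 4.56 for ephb2b and 1.74 to 3.96 for EPHB3.

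Outside retina-marker spots the receptors parted. ephb2b averaged 122 ± 47.3 CPM in retina-marker spots and, next in order, 59.9 ± 18.4 CPM in brain- and myelin-marker spots (SD, n = 4 sections). The ranges of those classes overlapped slightly, at 70.4 to 169 and 34.6 to 75.1 CPM. Brain- and myelin-marker spots also held retina markers, which summed to 7496, 9431, 858 and 1806 CPM in those of adult eye 1, adult eye 2, the stage 4 head, and the stage 3/5 section, beside their own markers at 8560, 13533, 18861 and 29245 CPM. Muscle markers reached 32807 CPM in those of the stage 4 head, and the part of these tissues in the ephb2b level was not tested. It was then at 19.8 ± 9.47 CPM in pigment-marker spots and 19.1 ± 16.2 CPM in lens-marker spots, levels that did not differ beyond their spread. In epithelium-marker spots it had 0 of 798477 UMIs. This was at least 3.66-fold lower than in the other spots, taking 3 counts over the 4 sections as the limit (edgeR adjusted p = 0.00012). In muscle-marker spots it had 1 of 2313677 UMIs, and it was called lower there (edgeR adjusted p = 5.9e-05).

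EPHB3 was measurable in most tissues. It averaged 280 ± 78.6 CPM in retina-marker spots, 85.9 ± 64.7 in pigment-marker spots, 80.2 ± 37.4 in brain- and myelin-marker spots and 63.0 ± 33.2 CPM in epithelium-marker spots (SD, n = 4 sections each). The last 3 did not differ from each other beyond their spread. Its pigment level was 182 CPM in the stage 4 head, above the 167 CPM of the retina-marker spots there. In the other sections the pigment level was 43.4 to 67.2 CPM. In epithelium-marker spots EPHB3 had 48.6, 110, 58.8 and 34.0 CPM in adult eye 1, adult eye 2, the stage 4 head, and the stage 3/5 section, against 22.4, 23.8, 24.1 and 41.6 CPM in the other spots. It was above the other spots in 3 of 4 sections and was not called (log2 fold 0.83, SE 0.40, edgeR adjusted p = 0.13).

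In muscle-marker spots EPHB3 was lower, with 8.29, 0, 6.42 and 0 CPM against 24.3, 29.4, 40.0 and 45.8 CPM in the other spots of adult eye 1, adult eye 2, the stage 4 head, and the stage 3/5 section (log2 fold -2.65, SE 0.60, edgeR adjusted p = 0.00019). The values at 0 would be 18.4 and 18.7 CPM at 3 counts, so each stands below its other spots also at that limit. Both receptor genes, and no other tested row, were called lower in muscle-marker spots, where 9.57% of all genes were called lower and 6.62% higher.

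In lens-marker spots EPHB3 had 1.85, 1.52, 24.3 and 0 CPM in adult eye 1, adult eye 2, the stage 4 head, and the stage 3/5 section, against 60.6, 75.5, 25.4 and 48.7 CPM in the other spots. The stage 4 head showed almost no difference, and the other sections a large one. The call of lower (log2 fold -2.11, SE 0.67, edgeR adjusted p = 0.024) was lost when adult eye 1 (adjusted p = 0.063), adult eye 2 (0.18) or the stage 3/5 section (0.10) was left out. In these spots 2 of 7 tested rows were called lower, EPHB3 and ALDH1A2, and 0 higher. Among all genes 25.9% were called lower and 5.47% higher.

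The direction of ephb2b in the lens depended on the scaling. It had 7.41, 7.31, 19.9 and 41.8 CPM in lens-marker spots of adult eye 1, adult eye 2, the stage 4 head, and the stage 3/5 section, against 21.0, 14.4, 9.96 and 29.0 CPM in the other spots. Plain CPM was thus lower in the lens of both adult eyes and higher in both developmental sections. The scaled log2 fold was 1.24 (SE 0.49, edgeR adjusted p = 0.056), and it was -0.26 (edgeR adjusted p = 0.78) when columns were scaled to total UMIs alone. The other 15 alternatives gave positive folds, and 5 of all 16 called the gene higher, among them DESeq2 (1.41, adjusted p = 0.015) and equal weights for the 5 tissues (3.08, edgeR adjusted p = 2.8e-05). By molecules, lens-marker spots held 63 of its 199 UMIs, against 59 in retina-marker spots. Lens-marker spots, however, held 6673905 UMIs of all genes, against 537643 in retina-marker spots. Summed over the 4 sections, ephb2b was thus at 9.44 CPM in lens-marker spots, against 110 CPM in retina-marker spots.

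**Figure D2:**
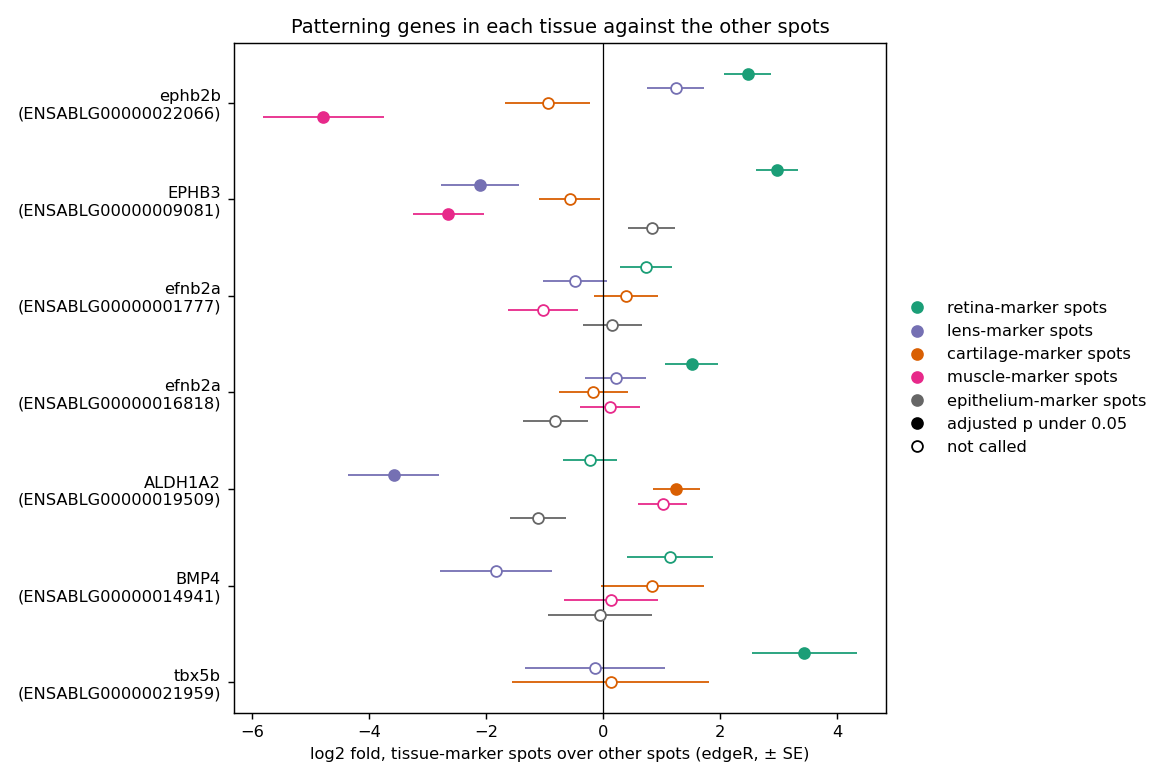
Log2 fold of each tested row (rows of the plot) in the spots of 1 tissue over all other spots, from edgeR over 4 sections, with lines of 1 SE; filled points are called and open points are not. Combinations with 0 UMIs in the tissue are not drawn. ephb2b, EPHB3 and efnb2a ENSABLG00000016818 lie to the right in retina-marker spots, and ALDH1A2 lies near 0 there. tbx5b is drawn too, but reached the test only through its retina UMIs.

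The dorsal ligand EFNB2 was split over 3 rows with 1 name, and the rows with appreciable counts were placed differently. EFNB2 encodes ephrin-B2, a membrane-bound ligand of the EphB receptors. efnb2a ENSABLG00000016818 had 53.4, 65.0, 191 and 49.7 CPM in the retina-marker spots of adult eye 1, adult eye 2, the stage 4 head, and the stage 3/5 section, against 14.9, 13.3, 7.88 and 24.1 CPM in the other spots. Every retina value was above every other-spot value, a separation that was not counted over all genes. The stage 4 head stood far above the rest. The gene was called higher (log2 fold 1.51, SE 0.46, edgeR adjusted p = 0.0056), and the call was lost without the stage 4 head (log2 fold 0.84, adjusted p = 0.093), with DESeq2 (log2 fold 0.23, adjusted p = 0.82) and with TMM factors taken over all tested genes (log2 fold 0.32, edgeR adjusted p = 0.56).

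Its largest pool of molecules was in connective-tissue-marker spots, with 58 of 237 UMIs. That class took 4.85%, 4.46%, 5.49% and 6.37% of all UMIs in adult eye 1, adult eye 2, the stage 4 head, and the stage 3/5 section. The levels there were 129, 100, 12.8 and 51.9 CPM in adult eye 1, adult eye 2, the stage 4 head, and the stage 3/5 section, so both adult eyes were highest. In globin-marker spots it had 3.44 to 7.71 CPM in all sections.

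efnb2a ENSABLG00000001777 showed the reverse placement in those classes in the adult eyes. In globin-marker spots it had 54.7, 84.9, 21.3 and 10.3 CPM in adult eye 1, adult eye 2, the stage 4 head, and the stage 3/5 section. That class took 6.77%, 5.02%, 17.6% and 19.2% of all UMIs in the same sections. Globin-marker spots held 57 of the 216 UMIs of this row, against 8 of 237 for efnb2a ENSABLG00000016818. In connective-tissue-marker spots this row had 10.4 to 30.4 CPM. The lowest of these was the stage 3/5 section, where globin- and connective-tissue-marker spots were thus alike. Neither class was among the fixed contrasts, so these placements are descriptions with no test. In retina-marker spots this row had 53.4, 43.3, 35.9 and 59.6 CPM, against 12.1, 11.5, 10.7 and 26.9 CPM in the other spots. It was higher by plain CPM in 4 of 4 sections but not called (log2 fold 0.73, SE 0.44, edgeR adjusted p = 0.18). By mean it had 48.0 ± 10.5 CPM in retina-marker, 45.2 ± 21.2 in pigment-marker and 42.8 ± 33.8 CPM in globin-marker spots (SD, n = 4 sections each). Whether near-identical stretches of the copies divided reads between them was not tested.

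**Figure D3:**
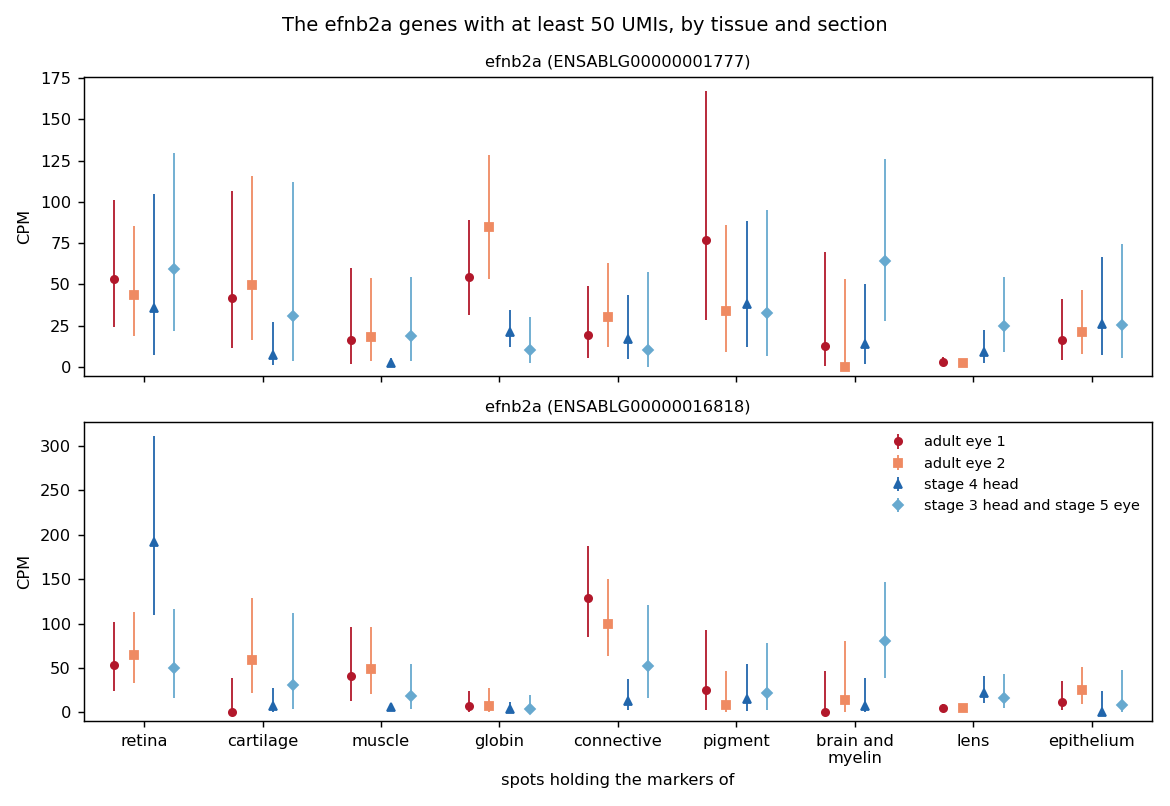
Level in CPM (vertical axes, linear) of efnb2a ENSABLG00000001777 (top) and efnb2a ENSABLG00000016818 (bottom) in 9 marker classes of spots; points are sections and lines exact 95% Poisson intervals. In the adult eyes the globin class is high for the top gene and low for the bottom gene, and the connective tissue class is the reverse.

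ALDH1A2, the enzyme that completes retinoic acid synthesis, was placed differently in adult and developmental sections. In retina-marker spots it had 125 and 114 CPM in adult eyes 1 and 2 (21 UMIs each), against 12.0 CPM in the stage 4 head (1 UMI) and 0 in the stage 3/5 section. At 3 counts those developmental sections would reach 35.9 and 29.8 CPM, so the lower adult value was at least 3.17-fold above both limits. The adult molecules came from 13 and 14 spots with at most 4 in a spot. The rule of size used here, both adult sections at least 2-fold past both developmental ones, was met in this direction by 3.51% of the 4532 genes with enough retina UMIs, and in the reverse direction by 1.94%. ALDH1A2 itself had enough retina UMIs (at least 20) only through the adult eyes, where it was high. That it met the rule is thus a description only. With 1 section in each developmental group there is no test of stage.

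Markers of other tissues also differed between those retina-marker spots. Globin markers were at 1530 and 1554 CPM in the retina-marker spots of adult eyes 1 and 2, against 9984 CPM in the stage 4 head and 5017 CPM in the stage 3/5 section. Muscle markers were at 320 and 785 CPM in the adult eyes, against 4735 and 1172 CPM, and connective tissue markers at 468 and 731 CPM, against 3563 and 656 CPM. Lens markers were at 18890 and 15773 CPM in the adult eyes, against 20445 and 2682 CPM. Their part in the ALDH1A2 values was not tested.

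Over all sections ALDH1A2 had no settled direction in the retina. By plain CPM its adult values lay above the other spots and its developmental values below them. It had 125, 114, 12.0 and 0 CPM in retina-marker spots, against 33.7, 28.1, 26.5 and 50.3 CPM in the other spots of the same sections. The fit gave a log2 fold of -0.23 (SE 0.46, edgeR adjusted p = 0.72), and alternatives ran from -1.82 (DESeq2 adjusted p = 0.040) to 0.80 with total UMIs as the scale. TMM factors over all tested genes gave -1.32 (edgeR adjusted p = 0.0091).

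Cartilage-marker spots averaged 130 ± 86.0 CPM of ALDH1A2, muscle-marker spots 120 ± 86.9 CPM and globin-marker spots 97.0 ± 79.1 CPM (SD, n = 4 sections each), means that lay within the spread between sections. Brain- and myelin-marker spots averaged 91.2 ± 32.5 CPM and pigment-marker spots 73.7 ± 55.6 CPM. In neither of these classes were both adult eyes above both developmental sections. Within each section, cartilage-marker spots stood above globin-marker spots, a difference that was not tested. In cartilage-marker spots it had 187, 218, 37.7 and 77.6 CPM in adult eye 1, adult eye 2, the stage 4 head, and the stage 3/5 section, against 33.9, 27.5, 25.5 and 45.6 CPM in the other spots. It was higher in 4 of 4 sections (log2 fold 1.25, SE 0.41, edgeR adjusted p = 0.046). That was the only row called of 7, where 2.24% of all genes were called higher and 2.61% lower. The call was lost without adult eye 1 (adjusted p = 0.14), without adult eye 2 (0.37) and under 9 of the other alternatives. As given above, muscle, connective tissue and globin markers exceeded cartilage markers in the adult cartilage-marker spots.

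In muscle-marker spots ALDH1A2 had 191, 190, 11.8 and 87.4 CPM in adult eye 1, adult eye 2, the stage 4 head, and the stage 3/5 section, against 32.9, 26.0, 37.5 and 42.1 CPM in the other spots. The stage 4 head alone was below its other spots. The contrast was not called over 4 sections (log2 fold 1.01, SE 0.42, edgeR adjusted p = 0.084) and was called without the stage 4 head (log2 fold 1.71, adjusted p = 0.00035). Globin-marker spots held the most ALDH1A2 molecules, 123 of 505, with levels of 137 and 189 CPM in the adult eyes, against 34.6 CPM in the stage 4 head and 27.5 CPM in the stage 3/5 section. They took 6.77% and 5.02% of all UMIs in the adult eyes, against 17.6% and 19.2% in those developmental sections.

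ALDH1A2 was lowest by mean in the lens. Lens-marker spots had 0, 0.61, 11.04 and 4.18 CPM in adult eye 1, adult eye 2, the stage 4 head, and the stage 3/5 section, against 99.5, 84.6, 28.0 and 55.0 CPM in the other spots. All lens values were below all other-spot values, a separation that was not counted over all genes. The gene was called lower (log2 fold -3.58, SE 0.78, edgeR adjusted p = 0.0021), as it was under all 16 alternatives. Only 8 of its 505 UMIs lay there, although lens-marker spots took 62.5% and 63.6% of all UMIs in adult eyes 1 and 2. By section the lens was not always lowest, since the retina- and connective-tissue-marker spots of the stage 3/5 section had 0 UMIs and the muscle- and retina-marker spots of the stage 4 head had 11.8 and 12.0 CPM. In epithelium-marker spots it had 4.05, 24.9, 39.2 and 25.5 CPM, against 39.3, 31.6, 25.8 and 48.7 CPM in the other spots (log2 fold -1.11, SE 0.47, edgeR adjusted p = 0.080). The stage 4 head was again the exception to the direction, and without it the gene was called lower (log2 fold -1.62, adjusted p = 0.018).

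**Figure D4:**
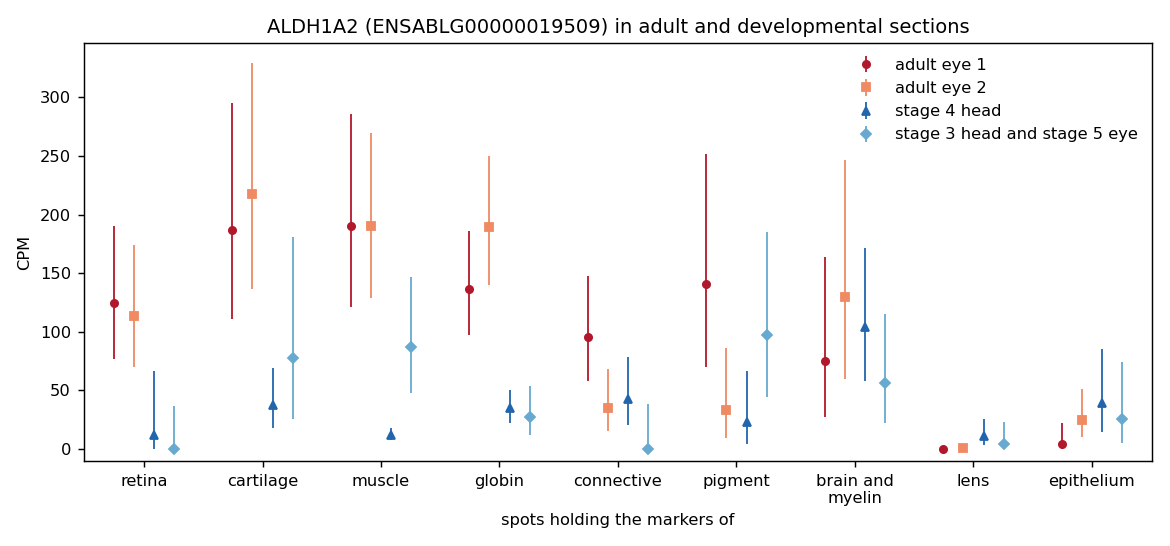
ALDH1A2 in CPM (vertical axis, linear) in 9 marker classes of spots; red points are the adult eyes, blue points the developmental sections, and lines exact 95% Poisson intervals. In retina-, cartilage-, muscle- and globin-marker spots both adult eyes lie above both developmental sections. In the connective, pigment, brain and myelin, lens and epithelium classes they do not.

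The dorsal signal BMP4, with 60 UMIs in all, was highest by mean in pigment-marker spots. It had 38.4, 16.8, 37.9 and 43.4 CPM there in adult eye 1, adult eye 2, the stage 4 head, and the stage 3/5 section, from 2 to 5 UMIs a section. Retina markers exceeded pigment markers in these spots, at 7517, 4875, 6750 and 12563 CPM against 3521, 3429, 6159 and 8639 CPM of pigment markers in the same sections, and globins reached 95982 CPM in the stage 4 head. Their part in the BMP4 and EPHB3 levels of pigment-marker spots was not tested. In retina-marker spots it had 17.8, 10.8, 35.9 and 0 CPM from 8 UMIs, against 2.32 to 5.95 CPM over all kept spots. It was not called in the retina (log2 fold 1.14, SE 0.74, edgeR adjusted p = 0.21) or in any other of the 5 tissues.

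TBX5, the T-box factor downstream of BMP4, was the sparsest of the dorsal genes. Its rows tbx5a and tbx5b differed in the sections that held their few retinal molecules. tbx5a had 6 of 11 UMIs in retina-marker spots, with 2 of 3, 1 of 1, 2 of 4 and 1 of 3 in adult eye 1, adult eye 2, the stage 4 head, and the stage 3/5 section. It was under the minimum for a test. tbx5b had 10 of 20 UMIs there, with 7 of 11 and 3 of 4 in adult eyes 1 and 2, against 0 of 4 for the stage 4 head and 0 of 1 for the stage 3/5 section. Its retinal molecules were thus all adult. Without the retina UMIs tbx5b would have stood under the minimum of 20, so its fitted fold is not given as a result.

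Receptor and dorsal UMIs were then set against each other within spots. In retina-marker spots EPHB2 and EPHB3 rows gave 65 of 118 patterning-gene UMIs in adult eye 1, 71 of 118 in adult eye 2, 27 of 52 in the stage 4 head, and 52 of 64 in the stage 3/5 section. As shares these were 55.1% (exact binomial 95% interval 45.7 to 64.3), 60.2% (50.7 to 69.1), 51.9% (37.6 to 66.0) and 81.3% (69.5 to 89.9). The stage 3/5 section stood highest, and its interval did not overlap those of the other sections. That separation from the adult eyes rested on ALDH1A2, which gave 21 UMIs in each adult eye and 0 in the stage 3/5 section: without ALDH1A2 in the total, an alternative chosen after seeing the data, the shares were 67.01% (56.7 to 76.2) and 73.2% (63.2 to 81.7) in adult eyes 1 and 2, against 52.9% (38.5 to 67.1) for the stage 4 head and an unchanged 81.3% for the stage 3/5 section. Retina-marker spots with UMIs of both sets numbered 11, 11, 3 and 1, against 34, 35, 17 and 26 with a receptor UMI. Those with a dorsal UMI numbered 36, 31, 21 and 10. The overlap to be had from sparse capture alone was not computed, so these counts do not show that the sets avoid each other. The binomial intervals cover counting error only, and spot positions were not used, so dorsal and ventral retina were not told apart by place.

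Elsewhere the receptor share varied by tissue. In muscle-marker spots it was 1 of 31 UMIs in adult eye 1, 0 of 44 in adult eye 2, 13 of 55 in the stage 4 head and 0 of 22 in the stage 3/5 section. In globin-marker spots it was 18.9%, 5.06%, 21.3% and 25% in the same order of sections. In brain- and myelin-marker spots it was 65%, 48.1%, 38.2% and 36.6%. In lens-marker spots it stayed between 46.5% and 52.1% in all 4.

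**Figure D5:**
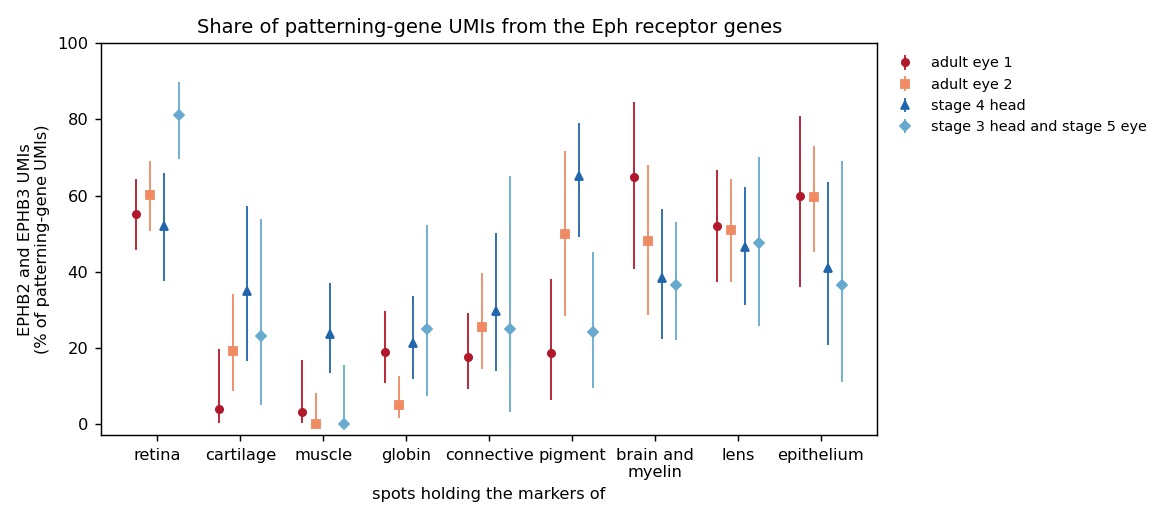
EPHB2 and EPHB3 UMIs as a percentage of all patterning-gene UMIs (vertical axis) in 9 marker classes of spots; points are sections and lines exact binomial 95% intervals. The retina point of the stage 3/5 section is the highest at 81.3%, and muscle points lie near 0 outside the stage 4 head.

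Between adult and developmental sections over all kept spots, none of the 7 tested rows met the 2-fold rule, which 2.17% of all genes met with adult above and 5.38% with adult below. ALDH1A2 reached 37.3 and 31.2 CPM in the adult eyes, against 26.2 CPM in the stage 4 head and 46.9 CPM in the stage 3/5 section. EPHB3 had 23.9 and 28.5 CPM in the adult eyes, against 25.3 and 41.0 CPM. The tissue on the sections differed as well: lens-marker spots took 62.5% and 63.6% of UMIs in the adult eyes, against 10.6% in the stage 4 head and 15.8% of the stage 3/5 section, and muscle-marker spots took 2.79% and 3.16% in the adult eyes, against 43.8% and 10.6% in those developmental sections. Its part in the levels was not tested.

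Within tissues the rule was met by a few rows. In retina-marker spots it was met by ALDH1A2, as given above, which had enough UMIs only through the adult eyes. The median gene there was only 0.23 higher in adults on the log2 scale. In cartilage, muscle and lens it was met beside a wider shift of genes. In cartilage-marker spots ALDH1A2 met it with adult above (smallest ratio 2.41), as did 10.3% of 1618 genes, while 1.73% met it below. Here too ALDH1A2 had enough UMIs only with those of the adult eyes, 18 and 22, against 10 and 5 in the developmental sections. In muscle-marker spots ALDH1A2 and efnb2a ENSABLG00000016818 met it with adult above, with smallest ratios of 2.18 and 2.21, as did 25.6% of 3508 genes (0.77% below). This efnb2a row had enough UMIs only with those of the adult eyes, 5 and 8, against 11 and 3 in the developmental sections. That it met the rule is thus a description only. The median gene of muscle-marker spots was itself 1.30 higher on the log2 scale in adults, and beyond it ALDH1A2 lay only 0.64 and efnb2a ENSABLG00000016818 only 0.58 higher, from the ratio of group means.

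In lens-marker spots ephb2b and both larger efnb2a rows met the rule with adult below, as did 29.4% of 3602 genes (0.999% above). Of these, efnb2a ENSABLG00000001777 had enough UMIs only with those of the developmental sections, 4 and 6, against 8 in each adult eye. That this row met the rule is thus a description only. The median gene was 1.11 lower on the log2 scale in adult lens-marker spots, and beyond it ephb2b was at -0.95, efnb2a ENSABLG00000001777 at -1.54 and efnb2a ENSABLG00000016818 at -0.78. In epithelium-marker spots the median gene was 0.76 higher in adults, and no row met the rule (12.1% of 2865 genes met it above and 3.7% below). ephb2b in retina-marker spots was lower in both adult eyes (94.9 and 70.4 CPM) than in the developmental sections (155 and 169 CPM), with a smallest ratio of 1.64, short of the rule.

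Related genes of the same pathways were counted in the same fits. The counts are to be read against the 33.2% of all genes called higher and 10.2% called lower in retina-marker spots. Of 12 tested ephrin and Eph rows other than the EphB2, EphB3 and ephrin-B2 rows, 5 were called higher and 0 lower in retina-marker spots, with a median log2 fold of 1.00, against 0.72 over all genes tested. They included EPHB6 (log2 fold 4.06), a kinase-inactive Eph receptor, EPHA6 (4.21) and the ephrin efna1b (2.48). Of 14 retinoic acid rows 3 were higher and 4 lower, with a median of -0.14. rdh10a, which makes retinaldehyde from retinol, was higher (log2 fold 2.16), as was the receptor rarab (2.39). RBP4, the retinol carrier of blood, was lower in retina-marker spots (-3.65) and higher in cartilage-marker spots (2.51). In the adult eyes those cartilage-marker spots held more globin than cartilage markers, as given above. The part of other tissues in the RBP4 level was not tested.

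Of 22 BMP pathway rows 6 were higher and 2 lower in the retina, with a median of 0.53, below that of all genes tested. bmp7b, a ligand related to BMP4, had 196, 103, 383 and 99.3 CPM in retina-marker spots of adult eye 1, adult eye 2, the stage 4 head, and the stage 3/5 section, against 2.17, 1.00, 5.97 and 7.08 CPM in the other spots (log2 fold 4.86, SE 0.44, edgeR adjusted p = 3.2e-14). bmp7b was separated from the other spots in every section, and BMP4 was above them in 3 of 4. In the stage 3/5 section BMP4 had 0 UMIs in retina-marker spots and 6.37 CPM in the other spots, counts too low to tell a direction there. Of 12 transcription factors of the eye axes 5 were higher and 1 lower, with a median of 1.44. NR2F2 (log2 fold 5.04), meis2a (3.05) and PAX2 (4.24), the last a marker of the optic stalk and ventral eye, led them.

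The homeobox genes HMX1 and hmx4 were called higher in lens-marker spots (log2 fold 3.78 and 3.73), by plain CPM in 4 of 4 sections. In the other tissues the lists counted as follows. In lens-marker spots 0, 0, 1 and 2 rows of the ephrin and Eph, retinoic acid, BMP and transcription factor lists were higher, and 3, 4, 5 and 5 lower (5.47% and 25.9% of all genes). In cartilage-marker spots 0, 2, 2 and 0 were higher, and 1, 0, 1 and 1 lower (2.24% and 2.61% of all genes). In muscle-marker spots 0, 0, 0 and 1 were higher, the last TBX15, and 0, 1, 3 and 4 lower (6.62% and 9.57% of all genes). In epithelium-marker spots 1, 2, 1 and 1 were higher, and 1, 1, 1 and 2 lower (9.4% and 10.5% of all genes).

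The genes most like each row across the 5 tissues in 4 sections were found among 8021 candidates with a symbol and at least 50 UMIs, by Pearson's r of log2(CPM + 10) over 20 values. These values share libraries and depth, so r is a description. ephb2b was closest to DYNC1LI1 (r = 0.95), VEPH1 and gabrr3a, and EPHB3 to PTPRK (0.93), AACS and TIPARP. ALDH1A2 was closest to yrk (0.92), DAB2 and tspan4b. efnb2a ENSABLG00000016818 was closest to ppap2d (0.89), IGFBP3 and rassf8b, efnb2a ENSABLG00000001777 to CANX (0.92), SRSF11 and EIF3A, and BMP4 to ASH1L (0.82), kitlga and cnot3b. Among the patterning genes themselves the highest r was 0.69, between EPHB3 and efnb2a ENSABLG00000001777. ephb2b had r = 0.65 both with efnb2a ENSABLG00000016818 and with EPHB3, ALDH1A2 and BMP4 had 0.53, and the larger efnb2a rows 0.52 with each other. Pairs across the ventral and dorsal sets were thus as high as pairs within a set, except for ALDH1A2, which had -0.21 with ephb2b and 0.04 with EPHB3, and BMP4, which had 0.22 and 0.30.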

How the data were processed

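The authors deposited raw UMI counts per gene and spot for each section. Per the file headers these come from Space Ranger 3.1.3. The genome build and annotation are not given in the sources used here, and genes keep the files' identifiers. From these counts, spots under 100 UMIs were left out. A spot joined the marker class with the highest mean z-score (at least 0.3, over markers detected in at least 2% of spots, counts scaled to 10000), if its marker UMIs lay at least 3 Pearson residuals above the section's share from at least 2 different markers. Doublets were not called, since a spot is not a cell, and no cell-type makeup was estimated.

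Counts were summed per class and section (4 sections, 2 columns each) and tested with edgeR 4.0.16 in R 4.3.3 with section as a block, on genes with at least 20 UMIs. TMM factors were computed on genes with at least 500 UMIs, a choice made after the same fit on simulated counts gave a shifted null with sparser genes. The simulated counts had a fixed dispersion, and 200 of 10982 genes were changed 4-fold. Recovery is given over the changed genes that kept at least 20 simulated UMIs, so it is lower over all 200. With this scaling, 23.3% of them were recovered in the simulated retina contrast, and 4.35% of calls were false. In the simulated lens contrast 61.8% were recovered, in cartilage 11.5%, in muscle 38.5% and in epithelium 36.0%. DESeq2 1.42.0, other scalings, filters, class rules (a stricter score, or Leiden clusters made with scanpy 1.11.5) and each section left out were alternatives.

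CPM carries exact 95% Poisson intervals and shares exact Clopper-Pearson intervals, both for counting error only; for 0 counts, 3 counts are the limit. Adult against developmental sections had no test. Named genes were all matching rows, up to 3 genes per related list and tissue with the smallest adjusted p under 0.05 (not all of them are printed), and the 3 genes most like each row with at least 50 UMIs. The genes and lists were chosen with earlier results of these data known. No sequences are shown.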

Additional observations from a re-analysis of the deposited data

Results flagged for a closer look

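Some rows lay above the other spots of a tissue in both adult eyes and below them in both developmental sections, or the reverse. The share of all genes with such a pattern was not counted, so these cases are descriptions. None of these differences between adult and developmental sections was tested, and each is given as tissue-marker spots minus other spots in CPM, for adult eye 1, adult eye 2, the stage 4 head, and the stage 3/5 section. ALDH1A2 in retina-marker spots differed by 90.8, 85.6, -14.6 and -50.3 CPM, resting on 43 UMIs. tbx5b in retina-marker spots differed by 40.5, 16.0, -0.96 and -0.71 CPM, resting on 10 UMIs, all adult. ephb2b in lens-marker spots ran the other way, at -13.6, -7.05, 9.92 and 12.7 CPM. In muscle-marker spots efnb2a ENSABLG00000016818 differed by 25.7, 35.0, -9.95 and -7.89 CPM, and efnb2a ENSABLG00000001777 by 2.99, 5.99, -16.2 and -11.6 CPM from 12 UMIs. These are plain CPM, and the scaling on well-captured genes also differed between sections. Its log2 factor, tissue over other spots, was -2.48, -2.47, -0.28 and -0.72 for lens and 0.97, 1.07, -0.97 and -0.25 for muscle. For retina it was 1.28, 1.45, 0.45 and 0.65, so scaling lowers the retina's plain CPM ratio most in the adult eyes. The signs above were not recomputed with these factors, so they need not hold after scaling. For ephb2b in lens-marker spots the scaled fit over the 4 sections gave a positive log2 fold (1.24, edgeR adjusted p = 0.056). The part of the scaling in these differences was not tested.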

How the results depend on the processing

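No paired analysis was possible because adult and developmental groups share fewer than 2 replicate numbers; tissues were compared within sections, with section as a block. The retina contrast called 4769 genes, and 3173 with DESeq2. The lens contrast called 3446, and 2264 with DESeq2, 5426 with total UMIs as the scale and 1432 with Leiden clusters. The cartilage contrast called 533, and 98 with no section block, 872 with TMM over all tested genes and 215 with Leiden clusters, which gave cartilage in 2 sections. The muscle contrast called 1778, and 1136 with no section block and 803 with total UMIs. The epithelium contrast called 2184, and 721 with no section block, 1407 with DESeq2 and 1353 with each tissue weighted equally. Leaving out a section gave 4082 to 5212 calls in the retina, 1114 (adult eye 2) to 6156 (stage 4 head) in the lens, 296 to 506 in cartilage, 1129 to 1628 in muscle and 1055 to 2082 in epithelium. Total UMIs as the scale, TMM over all tested genes, equal weights and median centring were chosen after seeing the data.

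Genes past the 2-fold rule of stage numbered 829 over all spots, and 1526 when the 5 tissues were weighted equally. Under that weighting ALDH1A2 turned to a log2 ratio of 1.78 in adults, from -0.10 over all spots. Median centring left 493 of 1095 genes in the lens, 308 of 924 in muscle and 285 of 452 in epithelium. Without 1 adult eye the counts were 350 to 386 in the retina (247 with both), 230 to 327 in cartilage (195) and 506 to 764 in epithelium (452).

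Among calls, those of ephb2b and EPHB3 in the retina, EPHB3 in muscle, ephb2b in epithelium and ALDH1A2 in the lens held under every alternative. ephb2b in muscle, with 1 UMI in muscle-marker spots in the main fit as well, was lost only with equal weights. efnb2a ENSABLG00000016818 in the retina passed in 13 of 17, EPHB3 in the lens in 11 of 16 and ALDH1A2 in cartilage in 6 of 17. Low capture limits all of these: most rows had under 20 UMIs in any 1 class of a section.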
